A study of Mus musculus with 9 samples.

Results

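The genes described here are the chemokines and their receptors of mouse reprogramming cultures, read by single-cell RNA sequencing. Members were taken by symbol from the gene table of the day 4 libraries: the Ccl and Cxcl ligands with Cx3cl1, Xcl1, Pf4 and Ppbp, the Ccr and Cxcr receptors with Cx3cr1, and the atypical receptors Ackr. The rule found 68 identifiers with 63 symbols among 31053 genes, of which 46 identifiers are ligands, 18 are signalling receptors and 4 are atypical receptors. Of the 68, 11 had no unique molecular identifier (UMI, 1 count of 1 captured RNA molecule) in any kept cell. In all, 35 members reached 1 CPM in at least 1 named cell class, namely 25 ligands, 7 receptors and 3 atypical receptors.

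Chemokines are small secreted proteins that direct the movement of cells, above all of leukocytes. They act through receptors that couple to inhibitory G proteins, while atypical receptors bind the same ligands and remove them without that signal. Macrophages are known both as a major source of chemokines and as cells that respond to them, and stromal cells such as fibroblasts are known for Cxcl12.

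The cultures were mouse embryonic fibroblasts (MEFs) prepared from embryos without head and heart, in which doxycycline switched on lentiviral transcription factors, Brn2 and Myt1l among them, to make induced neurons (iNs). All groups carried these factors. The 3 genotypes were WT, Per1-/- (targeted allele Per1tm1Drw) and Per2-/- (targeted allele Per2tm1Drw), both bred as knockout mice, and cells of each were taken at days 4, 7 and 10 for a single library apiece. The files of day 10 name another version of the counting program than those of days 4 and 7, so that difference and the step to day 10 cannot be told apart. Per the methods of the study the cells of 4 embryos were pooled in a dish, so a library stands for a pool of embryos and not for an animal. There was no second library of any genotype on any day, so no test within a day was possible, and the days served as repeats of a genotype and the genotypes as repeats of a day.

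The libraries held 126625215 to 353198559 UMI, and 74835 cells were kept, 6047 to 10663 per library with a median of 12791 to 27360 UMI per cell. The 7 named classes were macrophage-like (5731 cells), fibroblast-like (43527), neuron-like (7646), Schwann-like (2572), skeletal muscle-like (3063), astrocyte-like (1070) and mesothelial-like cells (565), and 10661 cells stayed unnamed. WT on day 10 stood apart, with 37.2% of its cells unnamed against 6.46% to 21.8% elsewhere. It gave 521 of 739 cells of a cluster with macrophage markers (led by Wfdc17 and Ms4a6c) and 1187 of 1299 cells of a cluster led by Sox10, both left unnamed for their share of doublets. All 15 macrophage markers, among them Csf1r, Adgre1 and C1qa, exceeded 1 CPM in macrophage-like cells. Xist, expressed from the inactive X chromosome, stood at 0.0674 and 0.0594 CPM in the Per1-/- libraries of days 7 and 10 and at 346.6 to 995.5 CPM elsewhere, and 4 Y-linked genes summed to 209.3 and 216 CPM there against 50.9 to 117.1 CPM. In these libraries, genotype and embryo sex cannot be told apart. Library pairs shared 11 to 38 cell barcodes.

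Levels are given as CPM, counts of a gene per 1000000 UMI of the cells of a class, either in 1 library or summed over the 9 libraries. The libraries read the 3′ end of each transcript, so a level is not scaled by transcript length. Members were kept out of the clustering that made the classes, and their levels by class are a description with no test.

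The family as a whole leaned towards macrophage-like cells, and the other members were spread over stromal, glial and neuron-like classes. Of the 35 members at 1 CPM or more, 16 were highest in macrophage-like cells (45.7%), where 15.5% of all 15778 genes at that level were. Mesothelial-like cells were highest for 6 (17.1%, against 7.81% of all genes) and fibroblast-like cells for 4 (11.4% against 6.83%). Astrocyte-like cells were highest for 5, near their share of all genes (14.3% against 14.9%). Neuron-like and Schwann-like cells led for 2 each (5.71%), below their shares of all genes (31.6% and 13.6%). Skeletal muscle-like cells led for 0, against 9.79% of all genes. At a floor of 10 CPM macrophage-like cells led for 9 of 24 members (37.5%, against 16.9% of all genes). For 18 of the 35 members the highest class was the same in all 9 libraries. The genes were concentrated in a few places of the genome, 11 of the 35 on chromosome 11, 7 on chromosome 5 and 6 on chromosome 9.

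**Figure D1:**
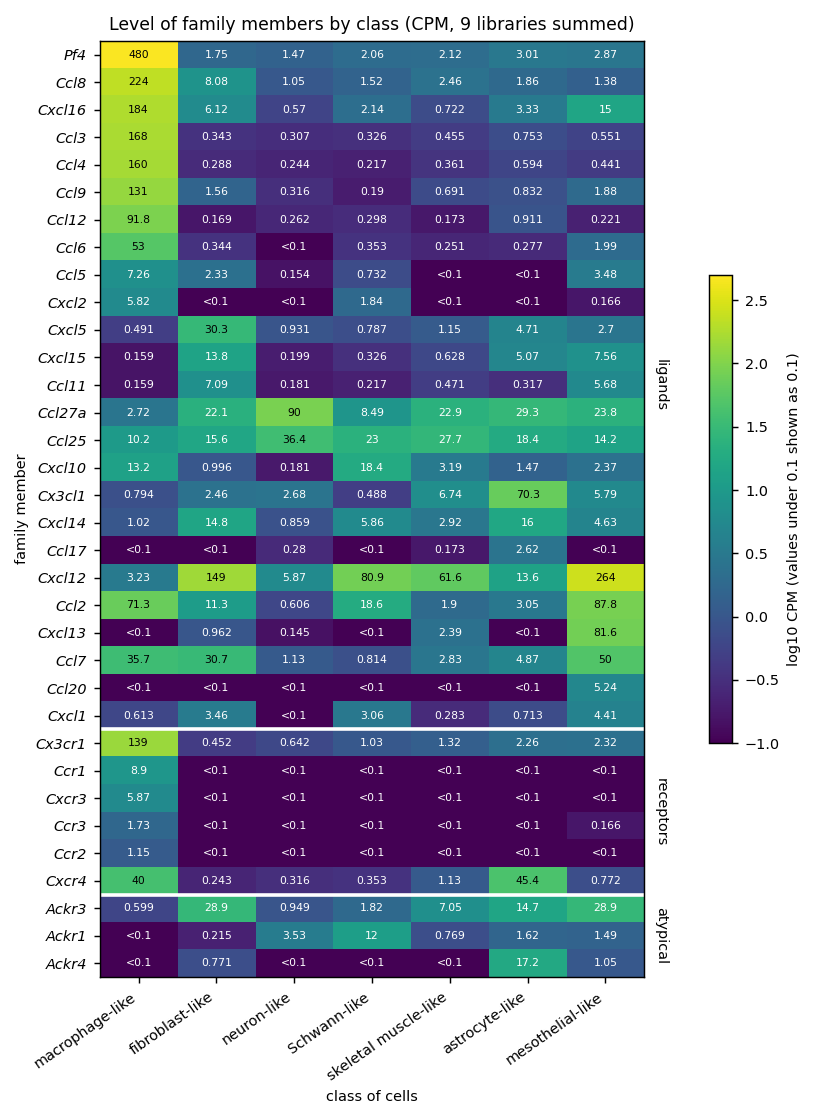
Levels of chemokines and receptors that reached 1 CPM or more, 1 row per gene and 1 column per cell class, with the UMI of 9 libraries summed and the CPM printed in each cell (log color scale). Pf4 reaches 480 CPM in macrophage-like cells, Cxcl12 is highest in mesothelial-like cells (264 CPM) and Cx3cl1 in astrocyte-like cells (70.3 CPM).

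Among the ligands, the CC chemokines of chromosome 11 carried much of the macrophage signal. Pf4 (chromosome 5: 90772435 to 90773383, plus strand, GRCm38) is a CXC ligand known from platelets and macrophages. Summed over the libraries, it was the most abundant ligand of macrophage-like cells. It stood at 479.6 CPM there (95% Poisson interval 475.9 to 483.2, which covers counting error only) and at 1.75 CPM in fibroblast-like cells. Ccl8, a monocyte attractant, came next in these sums with 223.9 CPM, against 8.08 CPM in fibroblast-like cells. That place rested on day 10. In Per1-/- on day 10 Ccl8 lay above Pf4 (14261 against 13290 UMI). On days 4 and 7 it lay below Cxcl16 in every library, on day 7 with 236, 5436 and 3113 against 1992, 7630 and 4186 UMI in WT, Per1-/- and Per2-/-. Cxcl16, which is made as a membrane protein and binds Cxcr6, stood at 183.6 CPM. Ccl3 and Ccl4, which attract monocytes, stood at 168.2 and 160.3 CPM, and the Ccr1 ligands Ccl9 and Ccl6 at 130.7 and 53.0 CPM. Ccl12, a monocyte attractant of rodents, stood at 91.8 CPM. These 8 ligands were highest in macrophage-like cells in 9 of 9 libraries.

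The genes of chromosome 11 lie in adjoining groups in GRCm38. Ccl2 (82035571 to 82037453), Ccl7 (82045712 to 82047525), Ccl11 (82057823 to 82062955), Ccl12 (82101845 to 82103400) and Ccl8 (82115185 to 82116799) share the plus strand. Ccl5, Ccl9, Ccl6, Ccl3 and Ccl4 lie between 83525778 and 83664683. Within the first group the order of classes, with the libraries summed, differed from gene to gene. Ccl12 and Ccl8 were highest in macrophage-like cells, Ccl11 in fibroblast-like cells, and Ccl2 and Ccl7 in mesothelial-like cells, the last 2 not in every library.

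The 250 bases before the RefSeq start of 4 macrophage ligands are shown because 2 of them, Ccl12 and Ccl8, are neighbours of like cell class and the others are the leading CXC ligand and a leading CC ligand. They are read 5′ to 3′ on the strand of the gene from RefSeq (GRCm38.p6), and capitals mark the motifs found on either strand, a TATA box (TATAAA) or an ETS core (GAGGAA, or its reverse complement). The windows are Ccl8 at chr11:82114935-82115184 (plus strand), Ccl12 at chr11:82101595-82101844 (plus strand), Pf4 at chr5:90772185-90772434 (plus strand) and Ccl3 at chr11:83649379-83649628 (minus strand).
Ccl8: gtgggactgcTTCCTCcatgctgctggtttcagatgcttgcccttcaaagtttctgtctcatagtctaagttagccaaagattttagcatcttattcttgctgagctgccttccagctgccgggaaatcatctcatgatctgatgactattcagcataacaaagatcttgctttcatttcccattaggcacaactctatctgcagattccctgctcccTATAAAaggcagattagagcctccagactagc
Ccl12: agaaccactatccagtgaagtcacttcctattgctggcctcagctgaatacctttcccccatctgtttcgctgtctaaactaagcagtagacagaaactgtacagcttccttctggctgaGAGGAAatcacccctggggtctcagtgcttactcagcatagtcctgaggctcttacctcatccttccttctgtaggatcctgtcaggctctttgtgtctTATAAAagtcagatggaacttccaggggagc
Pf4: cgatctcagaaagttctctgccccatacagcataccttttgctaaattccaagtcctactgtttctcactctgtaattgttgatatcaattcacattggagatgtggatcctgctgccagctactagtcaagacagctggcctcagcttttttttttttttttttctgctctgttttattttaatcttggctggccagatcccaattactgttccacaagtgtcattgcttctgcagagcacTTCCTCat
Ccl3: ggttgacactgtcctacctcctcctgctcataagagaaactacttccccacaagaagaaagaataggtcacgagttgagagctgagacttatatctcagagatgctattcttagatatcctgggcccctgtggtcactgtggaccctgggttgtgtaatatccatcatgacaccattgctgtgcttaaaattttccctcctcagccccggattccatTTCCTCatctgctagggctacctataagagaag

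Ccl8 and Ccl12 each held a TATA box, at -32 and -31 from the start, and an ETS core at -240 and -130. Pf4 and Ccl3 held an ETS core at -8 and -33. Promoters were matched for 47 of the 63 symbols, 54 promoters in all, and for 27 of the 35 members at 1 CPM. Over these 54 promoters 15 held the TATA box (27.8%, against 12.4% of 32851 promoters), 17 the ETS core (31.5% against 23.3%), 11 the NF-kB consensus (20.4% against 7.25%), 7 the AP-1 motif TGANTCA (13.0% against 6.75%) and 1 the E-box CACGTG (1.85% against 6.02%). The E-box is the motif that the CLOCK and BMAL1 proteins of the circadian clock are known to bind. Among the described members the NF-kB consensus was found in Cxcl1, Cxcl2, Cxcl10, Ccl20, Ccl9, Ccr1 and Ccr3. Matches to such short motifs are descriptions of the letters in these windows. Ccl2, Ccl4, Ccl5, Ccl7, Ccl11, Cxcl5 and Cxcl16 had no entry in the table used.

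The inflammatory monocyte attractants Ccl2 and Ccl7 had several sources. Ccl2 stood at 87.8 CPM in mesothelial-like, 71.3 in macrophage-like, 18.6 in Schwann-like and 11.3 CPM in fibroblast-like cells. Ccl7 stood at 50.02, 35.7 and 30.7 CPM in mesothelial-like, macrophage-like and fibroblast-like cells. Mesothelial-like cells were the highest named class in 5 of 9 libraries for Ccl2 and in 4 of 9 for Ccl7. Because fibroblast-like cells were the most numerous, they held 68.0% of all Ccl7 UMI and 36.0% of all Ccl2 UMI, whereas macrophage-like cells held 10.3% and 29.7%. By contrast 89.7% of Pf4 UMI lay in macrophage-like cells. For Ccl8 this share was 63.5% over all libraries but 6.09% to 84.1% in single ones, and fibroblast-like cells held more than macrophage-like cells in the 3 libraries of day 4 and in WT on day 7 (53.5% to 80.7%). The macrophage share of Ccl2 ranged from 4.74% to 59.4%, so for both genes the main source changed with the library.

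**Figure D2:**
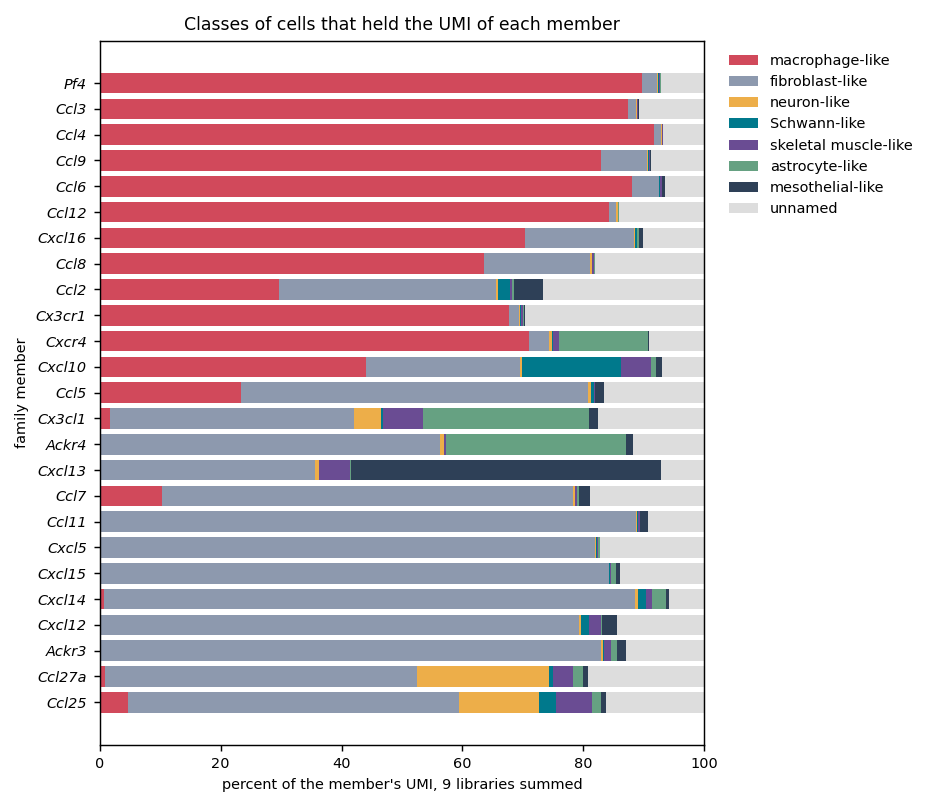
Percent of the UMI of each member that lay in each cell class, with the 9 libraries summed, the unnamed cells in grey. Macrophage-like cells hold 89.7% of Pf4 and 10.3% of Ccl7, and fibroblast-like cells hold 79.0% of Cxcl12 and 68.0% of Ccl7.

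Stromal classes led for the homeostatic ligand Cxcl12 (chromosome 6: 117168535 to 117181367), which is known to hold leukocyte and neural precursors in their niches. It stood at 263.8 CPM in mesothelial-like, 149.3 CPM in fibroblast-like, 80.9 CPM in Schwann-like and 61.6 CPM in skeletal muscle-like cells, against 3.23 CPM in macrophage-like cells. Fibroblast-like cells were highest for Cxcl5 (30.3 CPM) and Cxcl15 (13.8 CPM), known as neutrophil attractants, and for the eosinophil attractant Ccl11 (7.09 CPM, highest in 7 of 9 libraries). Cxcl14 was close in astrocyte-like and fibroblast-like cells (16.0 and 14.8 CPM), and the order of these classes varied among libraries. Mesothelial-like cells were highest for the B cell attractant Cxcl13 (81.6 CPM), which ranged from 0 CPM in WT on day 10, with 13 mesothelial-like cells, to 209.7 CPM in Per1-/- on day 4, with 111 cells. Summed over the libraries they were also highest for Ccl20 (5.24 CPM, highest in 6 of 9 libraries) and Cxcl1 (4.41 CPM, 3 of 9). Fibroblast-like cells held 73.5% of Cxcl1 UMI.

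Neural classes held a few ligands. Cx3cl1, the membrane-bound ligand of Cx3cr1, stood at 70.3 CPM in astrocyte-like cells, at 2.68 CPM in neuron-like cells and at 2.46 CPM in fibroblast-like cells, which still held 40.4% of its UMI. Ccl17, a ligand of Ccr4, was highest in astrocyte-like cells at 2.62 CPM (0.559 to 7.49 CPM over the libraries). Neuron-like cells were highest for Ccl27a, a ligand of Ccr10, with 89.96 CPM (79.5 to 102.7 CPM over the libraries) against 22.1 CPM in fibroblast-like cells. They were also highest for Ccl25, a ligand of Ccr9, with 36.4 CPM (32.7 to 40.8 CPM) against 15.6 CPM. Both genes overlap a gene on the other strand, Il11ra1 and Elavl1. Schwann-like cells were highest for Cxcl10, an interferon-induced ligand of Cxcr3, at 18.5 CPM, against 13.2 CPM in macrophage-like cells. In Schwann-like cells Cxcl10 reached 87.6 CPM in Per1-/- on day 7 and 6.04 to 28.9 CPM in the other libraries.

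Signalling receptors were fewer than ligands, and 6 of the 7 at 1 CPM were highest in macrophage-like cells. Cx3cr1, known from microglia and other resident macrophages, stood at 139.1 CPM there and at 0.452 CPM in fibroblast-like cells. It ranged from 31.2 CPM in Per1-/- on day 10 to 261.9 CPM in Per2-/- on day 7, and its span on chromosome 9 covers Gorasp1, Csrnp1 and Xirp1 on the same strand. Cxcr4, the receptor of Cxcl12, stood at 45.4 CPM in astrocyte-like and 40.0 CPM in macrophage-like cells, against 0.243 CPM in fibroblast-like cells. The inflammatory receptors were low even in macrophage-like cells, with Ccr1 at 8.91, Cxcr3 at 5.87, Ccr3 at 1.73 and Ccr2, the receptor of Ccl2, at 1.15 CPM.

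The atypical receptors lay outside the macrophage-like class. Ackr3, which takes up Cxcl12, was at 28.9 CPM in both fibroblast-like and mesothelial-like cells and at 0.599 CPM in macrophage-like cells. Ackr1, which binds many inflammatory chemokines, stood at 12.0 CPM in Schwann-like cells and overlaps Cadm3 on the same strand. Ackr4, which takes up Ccl25 among others, stood at 17.2 CPM in astrocyte-like cells and ranged from 4.60 to 63.7 CPM over the libraries.

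Set side by side, known ligands and receptors gave pairs with both partners in macrophage-like cells and pairs that crossed classes. Ccl3, Ccl6 and Ccl9 with Ccr1, and Ccl12 with Ccr2 were each highest in macrophage-like cells on both sides. Ccl5, another Ccr1 ligand, was highest there with the libraries summed (7.26 CPM), but in only 4 of 9 single libraries. Fibroblast-like cells held 57.4% of Ccl5 UMI and macrophage-like cells 23.4%. Ccl8 and Ccr2 were also both highest in macrophage-like cells, but whether mouse Ccl8 acts through Ccr2 was not examined. Cx3cl1 in astrocyte-like cells faced Cx3cr1 in macrophage-like cells, and Cxcl12 in mesothelial-like and fibroblast-like cells faced Cxcr4 in astrocyte-like and macrophage-like cells. Ccr4, Ccr6, Ccr7, Ccr8, Ccr9, Ccr10, Cxcr2, Cxcr5 and Cxcr6 stayed below 1 CPM in every named class, so Ccl27a, Ccl25 as a Ccr9 ligand, Cxcl5 and Cxcl16 had no such receptor at that level. These are RNA levels, and contact or signalling was not measured.

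The other members with a UMI below 1 CPM were Xcl1, Ccl27b, Ccl19, Ppbp, Cxcl3, Cxcl9, Ccl24, Cxcl17, Ccl22, Ackr2, Ccr1l1, Ccl1 and Ccl28. No UMI was found for Cxcr1, Ccl26, 1 of the identifiers named Ccl19, and all those named Ccl21a, Ccl21b, Ccl21c and Ccl27. The 3 counts that a count of 0 allows come to 0.00177 CPM over all kept cells. The Ccl21 and Ccl27 genes are near-identical copies, between which reads can be lost.

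The same members were also read as shares of cells. After each cell was thinned to 3000 UMI, 58.5% of macrophage-like cells held a Pf4 UMI (exact 95% interval 57.2 to 59.8%, and 92.2% before thinning), against 0.581% of fibroblast-like cells and 0.327% of neuron-like cells. The median depth of these classes was 22150, 21840 and 11590 UMI. Cxcl16 was found in 38.4%, Ccl3 in 28.5%, Ccl8 in 23.2%, Cx3cr1 in 20.8% and Ccl2 in 11.2% of thinned macrophage-like cells. Cxcl12 was found in 29.3% of thinned fibroblast-like cells and 0.820% of macrophage-like cells.

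The levels outside macrophage-like cells were set beside those of macrophage markers. The 15 macrophage markers stood in fibroblast-like cells at a median of 0.221% of their macrophage-like level (0.132% for Mrc1 to 1.54% for Cd14). Pf4 at 0.365%, Ccl3 at 0.204%, Ccl4 at 0.180% and Ccl12 at 0.184% lay within that range. Cd14 alone set its upper end, and Pf4 lay above the other 14 markers. Ccl8 at 3.61%, Cxcl16 at 3.33%, Ccl2 at 15.8% and Ccl7 at 85.9% lay above it. The part of free RNA or of remaining doublets in these values was not tested.

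With the macrophage-like cells of the 9 libraries pooled, several ligands lay mostly in a minority of cells. The top 5% of these pooled cells, not thinned, held 70.9% of Ccl7, 62.3% of Ccl2, 56.1% of Ccl8 and 56.1% of Ccl4 UMI. They held 25.1% of Pf4 and 21.2% of Cxcl16 UMI, and single cells reached 552 UMI of Ccl4. Differences between libraries and in depth between cells enter these shares together with the spread between cells of a library. Within a library, Ccl2 and Ccl7 varied together over macrophage-like cells (median Pearson r 0.526, 0.422 to 0.595 over 9 libraries), as did Ccl3 and Ccl4 (0.480, 0.372 to 0.610) and Ccl2 and Ccl12 (0.454, 0.175 to 0.524). Points are 113 to 1286 cells per library that share its depth, and no test was made.

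Macrophage-like cells comprised a large cluster led by Fcrls and Cd5l (4881 cells) and a cycling cluster led by Hist1h1b and Cep55 (850 cells). Ccl9 was higher in the cycling cluster in 9 of 9 libraries (181.8 against 117.9 CPM), and Cxcl16 was higher in the large cluster in 9 of 9 (189.5 against 160 CPM). Ccl8 was 261.4 CPM in the large cluster and 73.8 CPM in the cycling cluster, higher in the former in 6 of 9 libraries.

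Among fibroblast-like clusters, members had different homes. The cluster led by Tnn and Msx1 was highest for Cxcl12 (270.1 CPM, against 24.9 CPM in the lowest, led by Otor) and for Cxcl5 (72.7 CPM), in 7 and 6 of 9 libraries. The cluster led by Steap4 and Adh1 was highest for Ccl11 (24.7 CPM, highest in 8 of 9 libraries) and, summed over libraries, for Ccl9 (7.30 CPM, 5 of 9) and Ccl7 (56.4 CPM, 3 of 9, with 55.7 CPM in the cluster marked by C1qtnf3). Of its 5038 cells, 828 and 3229 came from Per1-/- on days 7 and 10, so cluster and library are mixed in these sums. The Otor-led cluster was highest for Ccl8 in 9 of 9 libraries (67.7 CPM, against 11.8 CPM in the next).

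Changes with genotype and day were tested in macrophage-like, fibroblast-like and neuron-like cells, on the UMI summed per library and class, with a model of genotype plus day over the 9 libraries (edgeR quasi-likelihood test, adjusted p over all genes tested). Fewer RNA molecules per cell and a smaller part of a class that makes them cannot be told apart in these sums. The share of macrophage-like cells itself differed among the libraries, at 5.75%, 21.3% and 10.5% of cells in WT, Per1-/- and Per2-/- on day 7.

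Ccl8 was the member that passed the test in macrophage-like cells, between days 7 and 10. It stood at 16.9, 20.9 and 222.3 CPM in WT on days 4, 7 and 10, at 30.2, 182.5 and 493.6 CPM in Per1-/- and at 21.0, 116.4 and 403.2 CPM in Per2-/-. All day 10 libraries lay above all day 7 libraries, and the day 4 libraries overlapped with WT on day 7. Ccl8 rose from day 7 to day 10 by 2.09 ± 0.36 (log2, SE, n = 3 libraries per day, adjusted p = 0.0471), 1 of 29 members tested, where 0.864% of 12738 genes were called, 0.754% as higher. At an unadjusted p under 0.05 there were 4 members and 1095 genes in all, and DESeq2 called 1 (background 1.48%). The log2 fold change ran from 1.58 to 2.48 over 16 alternatives, of which 8 passed the threshold. It did not pass without Per1-/- day 4 (adjusted p = 0.0613), Per1-/- day 7 (0.0588), Per2-/- day 7 (0.189), WT day 10 (0.157), Per1-/- day 10 (0.0898) or Per2-/- day 10 (0.262), nor with doublets kept (0.0531) or with each library clustered alone (0.302).

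**Figure D3:**
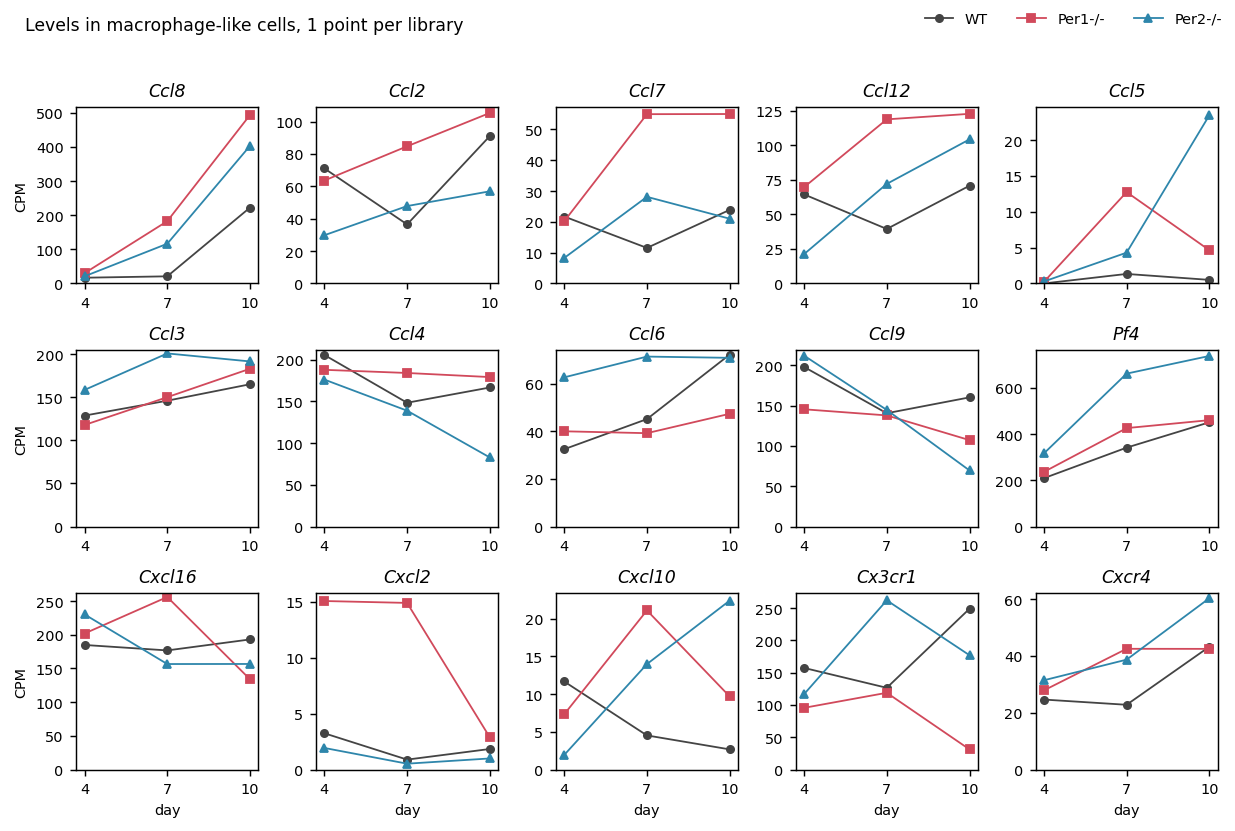
CPM of 15 members in macrophage-like cells by day, 1 point per library and 1 color per genotype, with no error bar because each point is 1 library. Ccl8 rises to 222 to 494 CPM on day 10, above the 20.9 to 182.5 CPM of day 7.

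Within the large cluster day 10 again lay above day 7. There Ccl8 stood at 19.9, 215.5 and 123.7 CPM on day 7 and 325.8, 547.3 and 422.1 CPM on day 10 in WT, Per1-/- and Per2-/-. In the cycling cluster the day 7 values were 23.4, 46.8 and 69.1 CPM and the day 10 values 35.6, 218.1 and 180.6 CPM, and the WT day 10 value lay among those of day 7. The sum of fibroblast markers in macrophage-like cells was 3154 CPM in WT on day 10 and 311.9 to 845 CPM elsewhere, and its part in the result was not tested.

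From day 4 to day 7, 0 of 29 members passed the test (background 0.0%), 5 had an unadjusted p under 0.05 (2300 of 12738 genes), and DESeq2 called 3 (background 3.1%), Pf4, Ccl8 and Ccl5. Pf4 stood at 208.9, 236 and 316 CPM on day 4 and at 341.1, 425.6 and 661.2 CPM on day 7 in WT, Per1-/- and Per2-/-. Every day 7 library was above every day 4 library, with a log2 fold change of 0.91 ± 0.10 (adjusted p = 0.0594). Ccl8 had a log2 fold change of 2.03 in this step, near the 2.09 of the next step. It did not pass the test here, but 3 of 17 alternatives called it, among them DESeq2 (adjusted p = 0.0111). Ccl5, at 7.26 CPM over all libraries, stood at 0 to 0.276 CPM on day 4 and at 1.33, 12.8 and 4.30 CPM on day 7.

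No member passed the genotype tests in macrophage-like cells. In Per1-/- against WT 0 of 29 were called (background 0.00785%), 9 had an unadjusted p under 0.05 (1235 of 12738 genes) and DESeq2 called 1 (background 0.22%), Cxcl2. In Per2-/- against WT 0 were called (background 0.0%), 6 had an unadjusted p under 0.05 (1927 genes) and DESeq2 called 2 (background 1.64%), Pf4 and Ccl5. In Per1-/- against Per2-/- 0 were called (background 0.00785%), 9 had an unadjusted p under 0.05 (1438 genes) and DESeq2 called 3 (background 0.699%), Pf4, Cxcl2 and Ccl6. The median log2 fold change of the members was 0.16, 0.09 and -0.06, beside 0.00, -0.03 and 0.02 over all genes.

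Cxcl2, a neutrophil attractant, was highest in macrophage-like cells (5.82 CPM over all libraries). It stood at 3.24, 0.888 and 1.84 CPM in WT, at 15.1, 14.9 and 2.87 CPM in Per1-/- and at 1.93, 0.524 and 0.992 CPM in Per2-/- on days 4, 7 and 10. Per1-/- was highest on each day, but its day 10 value lay below the WT value of day 4. The log2 fold change was 2.58 ± 0.64 in Per1-/- against WT (adjusted p = 0.505, DESeq2 0.0215) and 3.31 ± 0.64 against Per2-/- (adjusted p = 0.266, DESeq2 0.000103, and 0.0137 without a filter on low counts).

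The monocyte attractants are described next. In Per1-/- against WT the log2 fold change was 1.84 ± 0.39 for Ccl8 (adjusted p = 0.505), 1.27 ± 0.41 for Ccl7 (0.505) and 0.91 ± 0.38 for Ccl12 (0.513). Ccl7 stood at 21.7, 11.5 and 23.9 CPM in WT and at 20.2, 55.0 and 55 CPM in Per1-/- on days 4, 7 and 10, near each other on day 4 and apart on days 7 and 10, the days on which Xist was near 0 in Per1-/-. With the Y-linked sum as a covariate the Ccl8 value was 0.57, and the Ccl7 and Ccl12 values turned to -0.52 and -0.05. Without WT on day 7 the Ccl8 value was 1.22. Of 17 alternatives 1 called Ccl8, that without a filter on low counts (1.88, adjusted p = 0.0284).

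Ccl8 was above WT in both mutants on every day. The Per1-/- over WT ratio was 1.79 on day 4 (95% counting interval 1.34 to 2.43), 8.71 on day 7 (7.65 to 9.97) and 2.22 on day 10 (2.10 to 2.35), and the Per2-/- over WT ratio was 1.24 (0.862 to 1.80), 5.56 (4.87 to 6.37) and 1.81 (1.71 to 1.93), the first with an interval that includes 1. Such intervals cover counting error in 2 libraries and not the spread between cultures.

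Pf4 was highest in Per2-/- on each day, with a log2 fold change against WT of 0.83 ± 0.10 (adjusted p = 0.156, DESeq2 1.93e-10). The range of adjusted p over the alternatives was 1.93e-10 to 0.736. Of 9 megakaryocyte or platelet markers 8 stood below 1 CPM in macrophage-like cells, and Itgb3 stood at 13.9 CPM, against 5.88 CPM in fibroblast-like cells. The sum of the 9 was 8.40 to 25.7 CPM over the libraries, and a part of such cells in the Pf4 level was not tested.

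Among the receptors, Cx3cr1 stood at 157.3, 126.5 and 248.9 CPM in WT, at 95.5, 118.8 and 31.2 CPM in Per1-/- and at 116.6, 261.9 and 176.9 CPM in Per2-/- on days 4, 7 and 10. The Per1-/- library of day 10 was the lowest of all, and the day 7 values of WT and Per1-/- were near each other. The log2 fold change in Per1-/- against WT was -1.12 ± 0.48 (adjusted p = 0.513). It was -0.38 without the 3 libraries of day 10, an alternative chosen after seeing the data, -0.50 without Per1-/- on day 10, -0.63 without WT on day 10, -0.58 with the Y-linked covariate and -1.58 without WT on day 7. Cxcr4 stood at 22.8 to 43.3 CPM in WT and at 31.4 to 60.4 CPM in Per2-/-, a log2 fold change of 0.62 ± 0.17 (adjusted p = 0.207).

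The other members at 10 CPM in macrophage-like cells passed none of the 5 comparisons. Their log2 fold changes ran from -0.42 to 0.93 for Ccl2 (lowest adjusted p = 0.334), -0.67 to 0.56 for Ccl6 (0.208), -0.28 to 0.40 for Ccl3 (0.193) and -0.20 to 1.29 for Cxcl10 (0.476). For Cxcl16, Ccl9, Ccl4 and Ccl25 the lowest adjusted p was 0.715, 0.448, 0.376 and 0.395.

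**Figure D4:**
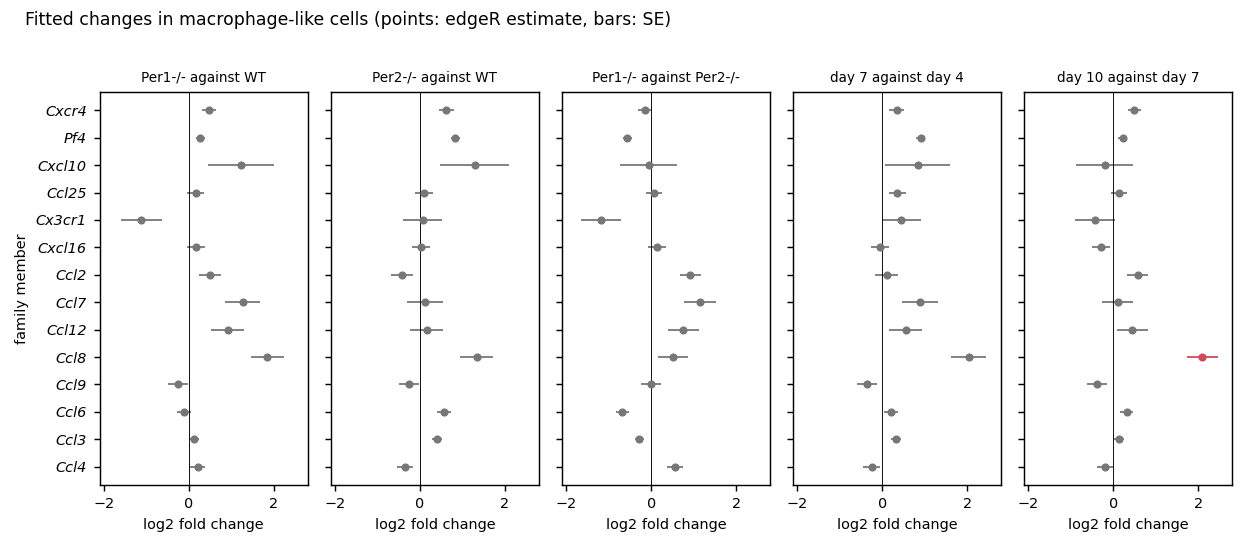
Log2 fold change with SE of 14 members at 10 CPM or more in macrophage-like cells for 3 genotype and 2 day comparisons. The colored point is Ccl8 from day 7 to day 10 (2.09 ± 0.36), and the other points did not pass the test.

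No member passed the genotype tests in fibroblast-like cells. Of 39 members 0 were called in Per1-/- against WT (background 0.0%), with 12 at an unadjusted p under 0.05 (1348 of 16967 genes) and 2 called by DESeq2 (background 0.837%), Cxcl9 and Ccl9. In Per2-/- against WT 0 were called (background 0.0%), 7 had an unadjusted p under 0.05 (1265 genes) and DESeq2 called 0 (background 0.725%). In Per1-/- against Per2-/- 0 were called (background 0.0%), 12 had an unadjusted p under 0.05 (2361 genes) and DESeq2 called 5 (background 2.71%), Ackr3, Cxcl9, Ccl7, Ccl11 and Ccl9. Without the Per1-/- library of day 4 the counts of Per1-/- against WT and against Per2-/- were 7 and 8, where 2.58% and 6.93% of 16888 genes were called. The Per1-/- libraries left in that fit were those with Xist near 0. Genotype and embryo sex therefore cannot be told apart in it.

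Cxcl12 stood at 169.2, 180.6 and 171.4 CPM in WT fibroblast-like cells, at 155.5, 113.7 and 101.9 CPM in Per1-/- and at 145.6, 149.6 and 148.1 CPM in Per2-/- on days 4, 7 and 10. The Per1-/- libraries of days 7 and 10 were the lowest of the 9. The log2 fold change in Per1-/- against WT was -0.45 ± 0.13 (adjusted p = 0.515). It was -0.63 without Per1-/- on day 4 (adjusted p = 0.0302) and -0.17 with the Y-linked covariate. In the fit without Per1-/- on day 4, genotype and embryo sex cannot be told apart. Within the cluster marked by C1qtnf3, which had cells in every library, Cxcl12 stood at 108, 103.8 and 104.7 CPM on day 7 and at 112.2, 100.1 and 96.3 CPM on day 10 in WT, Per1-/- and Per2-/-. The Tnn and Msx1 cluster, the highest for Cxcl12, held 1659, 42 and 3207 cells on day 7 and 921, 97 and 843 cells on day 10.

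Cxcl15 stood at 11.8, 20.7 and 29.0 CPM in WT, at 10.2, 4.32 and 2.09 CPM in Per1-/- and at 11.1, 11.9 and 26.4 CPM in Per2-/- on days 4, 7 and 10. The genotypes were close on day 4 and Per1-/- was lowest on days 7 and 10. Cxcl15 stood at 0.19 to 1.73 CPM within the C1qtnf3 cluster. Over all fibroblast-like cells its log2 fold change was -1.78 ± 0.66 in Per1-/- against WT (adjusted p = 0.583). It was -2.78 without Per1-/- on day 4 (adjusted p = 0.0253), -1.07 without Per1-/- on day 10 and -0.82 with the Y-linked covariate. Here too, the fit without Per1-/- on day 4 cannot tell genotype from embryo sex. Ackr3 stood at 23.1, 24.5 and 28.4 CPM on day 4, at 28.6, 11.8 and 35.6 CPM on day 7 and at 31.1, 15.6 and 50.6 CPM on day 10 in WT, Per1-/- and Per2-/-, with Per1-/- lowest on days 7 and 10 and between the others on day 4. Within the C1qtnf3 cluster Ackr3 stood at 14.4, 9.54 and 18.6 CPM on day 7 and at 18.7, 14.85 and 22.3 CPM on day 10. Its highest cluster, led by Pcolce2 and Mia (74.8 CPM), held 3438 cells, of which 3358 came from Per2-/- on day 10, and the next was the Tnn and Msx1 cluster (55.4 CPM).

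Ccl7, by contrast, was highest in Per1-/- on days 7 and 10. It stood at 27.8, 95.4 and 16.1 CPM on day 7 and at 25.5, 38.3 and 11.4 CPM on day 10 in WT, Per1-/- and Per2-/-, but WT was highest on day 4 (44.4, 27.5 and 19.8 CPM). The log2 fold change in Per1-/- against Per2-/- was 1.71 ± 0.43 (adjusted p = 0.280). It was 2.23 without Per1-/- on day 4 (adjusted p = 0.00352), 1.08 without Per1-/- on day 7 and 0.73 with the Y-linked covariate, and DESeq2 gave an adjusted p of 0.0431. Again the fit without Per1-/- on day 4 cannot tell genotype from embryo sex. Within the C1qtnf3 cluster Ccl7 stood at 45.5, 107.4 and 34.96 CPM on day 7, so the high Per1-/- value was there too. Ccl11 followed the same order, at 7.78, 19.8 and 3.19 CPM on day 7 over all fibroblast-like cells and 7.55, 17.6 and 3.55 CPM within that cluster.

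Cxcl5 stood at 48.0, 46.2 and 44.4 CPM in WT, at 36.2, 21.7 and 11.3 CPM in Per1-/- and at 20.3, 18.4 and 31.8 CPM in Per2-/- on days 4, 7 and 10, with every WT library above every mutant library. Its log2 fold change against WT was -1.001 ± 0.38 in Per1-/- (adjusted p = 0.596) and -0.89 ± 0.38 in Per2-/- (0.667). Cxcl14 stood at 16.8, 22.8 and 28.5 CPM on day 4, at 12.7, 8.87 and 12.3 CPM on day 7 and at 7.56, 5.52 and 12.2 CPM on day 10 in WT, Per1-/- and Per2-/-, and every day 4 library lay above the later ones. The log2 fold change of Cxcl14 from day 4 to day 7 was -0.99 ± 0.22 (adjusted p = 0.0688). It passed in 2 of 16 alternatives, DESeq2 (adjusted p = 0.00033) and no filter on low counts (0.0438). Ccl2 stood at 20.4, 3.85 and 2.86 CPM in WT, at 13.0, 40.3 and 9.04 CPM in Per1-/- and at 11.1, 5.25 and 4.74 CPM in Per2-/- on days 4, 7 and 10, highest in WT on day 4 and in Per1-/- on days 7 and 10. Its log2 fold change in Per1-/- against WT was 1.60 ± 0.74 (adjusted p = 0.647). For Ccl27a and Ccl25 the lowest adjusted p over the 5 comparisons was 0.401 and 0.628.

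**Figure D5:**
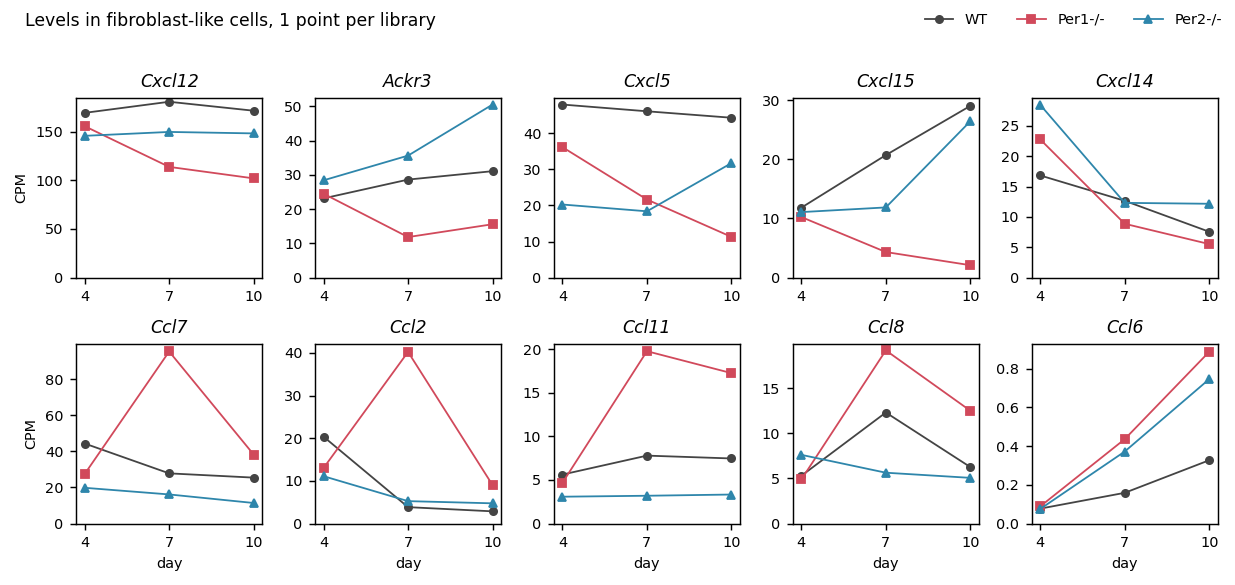
CPM of 10 members in fibroblast-like cells by day, 1 point per library and 1 color per genotype, with no error bar because each point is 1 library. Cxcl12 is lowest in Per1-/- on days 7 and 10 (114 and 102 CPM), and Ccl7 reaches 95.4 CPM in Per1-/- on day 7.

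With day, 1 of 39 members was called in fibroblast-like cells in each step, where DESeq2 called 3 (background 8.43%) and 1 (background 2.69%). Ccl6 rose from day 4 to day 7 by 1.92 ± 0.35 (adjusted p = 0.0461, background 1.96%, 0.849% as higher), from 0.0755 to 0.0887 CPM to 0.159 to 0.436 CPM. Ccl6 in fibroblast-like cells was 0.650% of its macrophage-like level, above 14 of the 15 macrophage markers and below Cd14. The sum of these markers there was 14.7 to 29.6 CPM on day 4 and 25.8 to 71.5 CPM on day 7. Ccl19, a Ccr7 ligand, rose from day 7 to day 10 by 2.67 ± 0.44 (adjusted p = 0.0381, background 1.22%, 1.01% as higher), from 0.0167, 0.109 and 0.0213 CPM to 0.115, 0.468 and 0.249 CPM, on 126 UMI in all kept cells. The Ccl6 call was lost without any library but WT day 4 (adjusted p = 0.0575 to 0.216) and the Ccl19 call without any but Per1-/- day 4 (0.0607 to 0.252).

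In neuron-like cells 0 of 18 members were called in Per1-/- against WT (background 0.00699%), Per2-/- against WT (0.0%) or Per1-/- against Per2-/- (0.0%). An unadjusted p under 0.05 was found for 3, 3 and 0 (569, 788 and 900 of 14309 genes), and DESeq2 called 0 in each (background 0.105%, 0.147% and 0.161%). Ccl27a stood at 79.5 to 102.7 CPM and Ccl25 at 32.7 to 40.8 CPM over the 9 libraries, with a lowest adjusted p over the 5 comparisons of 0.382 and 0.208. From day 4 to day 7, where 22.0% of 14309 genes were called, 11.6% as higher and 17.4% by DESeq2, 1 member was called. Pf4 rose by 1.81 ± 0.58 (adjusted p = 0.0462), from 0.191, 0.725 and 0.229 CPM to 0.271, 2.19 and 2.65 CPM, on 4, 21 and 3 UMI and 3, 8 and 32 UMI in WT, Per1-/- and Per2-/-. The fold change ran from 1.18 to 2.58 with 1 library left out. The call was lost with each library clustered alone (1.97, adjusted p = 0.102) and without WT day 4 (adjusted p = 0.0979), Per2-/- day 4 (0.227), Per1-/- day 7 (0.142), Per2-/- day 7 (0.285) or Per2-/- day 10 (0.0544). Pf4 in neuron-like cells was 0.305% of its macrophage-like level, the median of the macrophage markers was 0.288%, and their sum in neuron-like cells was 15.9 to 46.1 CPM on day 4 and 26.8 to 128.4 CPM on day 7. From day 7 to day 10, 0 members were called (background 11.8%, 6.42% as higher), 3 had an unadjusted p under 0.05 (4215 genes) and DESeq2 called 0 (background 10.3%).

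The difference between macrophage-like and fibroblast-like changes was tested for 42 members. In Per1-/- against WT 0 were called (background 0.0122%), 8 had an unadjusted p under 0.05 (1713 of 16425 genes) and DESeq2 called 0 (background 0.164%). From day 4 to day 7, 0 were called (background 0.0791%, 0.0426% as higher), 6 had an unadjusted p under 0.05 (2007 genes) and DESeq2 called 1 (background 1.88%), Ccl6.

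Some genes that carry the chemokine signal inside the cell were present in every named class, and others were nearly confined to macrophage-like cells. Rhoa stood at 252.4 to 578.1 CPM over the named classes. Dock2 stood at 145.9 CPM in macrophage-like cells and at 0.713 CPM or less in the others. Of 47 genes of G proteins, kinases and regulators 29 were highest in macrophage-like cells, where 15.5% of all genes at 1 CPM were, led by the inhibitory G protein subunit Gnai2 (1090 CPM), Gng5 (886.1 CPM) and Cdc42 (822.3 CPM). In macrophage-like cells 0 of 46 tested passed in any of 5 comparisons. In fibroblast-like cells 1 of 44 rose from day 4 to day 7, Pik3cg, by 2.19 ± 0.40, where 1.96% of all genes were called, 0.849% as higher. Pik3cg stood at 92.3 CPM in macrophage-like and 0.184 CPM in fibroblast-like cells, in which the macrophage markers were also higher on day 7, and their part in the result was not tested. In neuron-like cells 22.0% of all genes were called from day 4 to day 7, 11.6% as higher. Of 37 genes of the list tested there, 5 rose (log2 1.11 for Rgs2, 0.33 for Gnai1, 1.24 for Arrb1, 1.29 for Rgs10 and 0.57 for Elmo1). In the same step 4 fell (-1.36 for Rgs16, -0.49 for Prex1, -0.62 for Gng5 and -0.48 for Tiam1). From day 7 to day 10, 11.8% of all genes were called, 6.42% as higher. Of the list, 4 rose (0.74 for Rgs2, 0.58 for Rgs19, 0.45 for Gnai1 and 0.54 for Elmo1) and 2 fell (-1.30 for Rgs16 and -0.64 for Tiam1). Levels were read for 18 related genes outside the family. The 3 most abundant of them in macrophage-like cells were Mif (421.3 CPM), Cmtm7 (159.8 CPM) and the complement receptor C5ar1 (83.0 CPM). Mif was higher still in astrocyte-like cells (530.7 CPM). In macrophage-like cells 0 of 15 tested passed. In fibroblast-like cells 2 of 14 tested, Dpp4, a protease that trims chemokines, and the attractant Rarres2, rose from day 4 to day 7, by 1.73 and 1.5 (log2). In neuron-like cells, with 8 tested and the shares of all genes called given above, Dpp4 (1.60) and Mif (0.75) rose and Cmtm7 (-0.57) and Cmtm8 (-0.60) fell in that step, and Rarres2 (2.45) and Mif (0.57) rose from day 7 to day 10.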

How the data were processed

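Single-cell RNA sequencing was made with the 10x 3′ v3.1 kit from 9 libraries, 1 for each of 3 genotypes and 3 days. The deposited values are raw UMI counts per gene and barcode, made by the authors with Cell Ranger. The file headers give version 4.0.0 for days 4 and 7 and 6.0.0 for day 10, and the submitters' processing notes 7.1. The gene tables differ (31053 and 32285 genes), and the 30406 shared identifiers, with 99.3 to 99.9% of UMI, were used.

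Of 95603 barcodes, 81999 reached 3000 UMI without exceeding 20% of mitochondrial reads, and 7164 ranked highest by Scrublet were removed as doublets, at 0.8% per 1000 barcodes. Cells were clustered without the members (scanpy 1.11.5, leidenalg 0.10.2, 2000 variable genes, 30 components, 15 neighbours, resolution 1) and clusters named from marker lists, which may differ from the authors' names. Counts were summed per library and class and tested with edgeR 4.0.16 (quasi-likelihood, TMM, genotype plus day, Benjamini-Hochberg over all genes, threshold 0.05) and, as an alternative, DESeq2 1.42.0. The code was tested on simulated data. The other alternatives were RLE size factors, no filter, doublets kept, each library clustered alone, a Y-linked covariate, each library left out and those named in the closing section as chosen after seeing the data. Depth was 126625215 to 353198559 UMI per library, and intervals are 95% and cover counting error only. Libraries of a genotype come from different days, so p-values measure the spread between these libraries.

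The rule for named genes took members at 1 CPM in a class, with statistics for members called or at 10 CPM in a tested class, and for pathway genes called or among the 3 highest in macrophage-like cells. Members, lists and tests were chosen with earlier results of these data known. A receptor at 1 CPM and some other names are not reported here. Promoter sequences came from RefSeq (GRCm38.p6). The 3′ counts of Per1 and Per2 do not check a deletion upstream: Per1 stood at 6.34 to 7.89 CPM in WT and 9.14 to 10.3 CPM in Per1-/-, and Per2 at 2.58 to 2.99 CPM in WT and 4.97 to 6.39 CPM in Per2-/-.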

Additional observations from a re-analysis of the deposited data

Results flagged for a closer look

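Cells of unnamed clusters entered no comparison outside the alternatives described below. These clusters held 3 members at 10 CPM or more and at least 2 times the level of every named class. Others lay above every named class by less, among them Ccl8 with 339.7 CPM in the cluster led by Ighm and Siglech against 223.9 CPM in macrophage-like cells. Cxcl5 stood at 69.9 CPM (6091 UMI) in a cluster led by Angptl7 and Gchfr, against 30.3 CPM in fibroblast-like cells. Cx3cr1 stood at 391.4 CPM (7138 UMI) in a cluster led by Ighm and Siglech, against 139.1 CPM in macrophage-like cells, and was higher there than in both macrophage-like clusters in 9 of 9 libraries. Ccl11 stood at 22.8 CPM (219 UMI) in a cluster led by Adipoq and Fabp4, against 7.09 CPM in fibroblast-like cells. In all, 315 values of members in 9 unnamed clusters were read.

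Ccl2 had a log2 fold change of 0.57 in macrophage-like and -1.11 in fibroblast-like cells from day 7 to day 10, with opposite signs in every genotype. It was 1 of 9 pairs of effects compared, and the difference was not tested.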

How the results depend on the processing

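No paired analysis was possible because the labels give no replicate numbers, beyond the term for day that the model already held. DESeq2 called 1, 2, 3 and 3 members in macrophage-like cells (Per1-/- against WT, Per2-/- against WT, Per1-/- against Per2-/-, day 7 against 4), 2, 5 and 3 in fibroblast-like cells (Per1-/- against WT, Per1-/- against Per2-/-, day 7 against 4) and 1 in the difference between them for day 7 against 4. For the alternatives that follow in this paragraph the share of all genes called is not given. Their counts show how calls moved and not how members compare with other genes. Without a filter on low counts the macrophage-like counts were 1, 1, 1 and 3, the fibroblast-like count for day 7 was 2, and the neuron-like counts were 1, 1 and 1 for genotype and 4 for day 10 against 7. With each library clustered alone, 1 macrophage-like member was called for day 7 and 0 for day 10, and 0 fibroblast-like members for day 7. With doublets kept, 0 macrophage-like members were called for day 10, 0 fibroblast-like for day 7, 5 neuron-like for day 7 and 2 in the difference for day 7. With doublets removed, 22.0% of all genes in neuron-like cells were called for day 7. A Y-linked covariate gave 0 fibroblast-like members for day 10 and 3 neuron-like for day 7. In fibroblast-like cells for day 7 it called Ccl8 (log2 1.08, adjusted p = 0.0478) in place of Ccl6. It turned the macrophage-like Per1-/- against WT values of Ccl7 to -0.52 and Ccl12 to -0.054. Chosen after seeing the data, counting the Ighm and Siglech cluster as macrophage-like gave 1 member for day 7, and leaving out the 3 day 10 libraries gave 0 fibroblast-like members and 2 in the difference for day 7. At a floor of 10 CPM, 9 of 24 members were highest in macrophage-like cells.

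Leaving out 1 library at a time gave 0 to 0 (Per1-/- against WT), 0 to 1, 0 to 1 and, for both day steps, 0 to 1 members called in macrophage-like cells, 0 to 7, 0 to 0, 0 to 8 and, for both day steps, 0 to 1 in fibroblast-like cells, and 0 to 1 for day 7 and 0 to 0 otherwise in neuron-like cells. It gave 0 to 1 in the difference by genotype, 0 to 2 in that by day and 16 to 16 members highest in macrophage-like cells. The 7 and 8 came without Per1-/- day 4, where 2.58% and 6.93% of all genes were called. In that fit genotype and embryo sex cannot be told apart. For the other counts without 1 library the share of all genes called is not given. Those counts show how calls moved and not how members compare with other genes. Pf4 in neuron-like cells passed in 10 and Ccl6 in fibroblast-like cells in 4 of 16 alternatives, and Ccl19 in 6 of 15. The causes of these moves were not tested. Among single members, 247 alternative values kept direction and side of the threshold, 15 gained and 8 lost a call and 2 reversed, and without 1 library 289 kept both, 8 gained and 27 lost a call.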
